A study of Mus musculus with 12 samples.

Results

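The effect of losing Dkk1 was examined in the posterior epiblast of the mouse embryo, the tissue that holds the primitive streak and supplies the mesoderm and the trunk. Knockout posterior arrays, from embryos labelled Dkk-/-, were compared with control posterior arrays, from embryos labelled Dkk+/+, with 3 arrays on each side. These 6 of the study's 12 Illumina bead arrays all carry total RNA of posterior epiblast collected at E7.75, and the other 6 carry the anterior epiblast of the same genotypes. Probes were tested where their signal stood above the negative controls (detection p under 0.05) on at least 3 of the 6 posterior arrays, which kept 18708 of 46237 probes. Of these, 14479 carried a gene name and stood for 10180 genes. The sample codes name Dkk1, while the genotype labels read Dkk. The allele, the strain background and the number of embryos behind an array were not stated in the labels, whose protocol mentions 4 genotypes and spells out the pair used here. The p-values below measure only the spread between these samples.

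Dkk1 is a secreted protein that binds the Wnt co-receptors LRP5 and LRP6 and keeps Wnt ligands from activating beta-catenin and its TCF/LEF partners on target genes. Around gastrulation it is made on the anterior side of the embryo and protects head development, whereas Wnt3a and other ligands act in the posterior epiblast and the streak. The comparison asks what the loss of the antagonist does where Wnt signalling is already high.

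Values below are log2 normalized intensities, and a difference is the knockout posterior mean minus the control posterior mean on that scale, with its standard error (SE) from the fit. Mean raw signal ran from 384 to 586 in the control arrays and was 523, 189 and 301 in knockout replicates 1, 2 and 3. Knockout posterior replicate 2 therefore stood apart before any comparison. It detected 15539 of the tested probes against 16836 to 18198 on the other 5 arrays, and it held the lowest of the 6 values for 32.3% of probes and the highest for 23.2%. The median SD of a probe was 0.161 in the control group and 0.219 in the knockout group, and 0.146 over knockout replicates 1 and 3. For many of the results that it moved by over 1.5 times, though not for all, values are also given without that array.

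Most markers chosen for the labelled tissue were detected on all 6 arrays. Otx2 and Eomes were detected on 5 and the epiblast marker Epcam on only 1, and T was not analysed. Of the posterior and streak genes, Mixl1 lay between 8.58 and 9.37, Fgf8 between 8.79 and 9.53, Wnt3a between 11.14 and 11.80 and Cdx2 between 12.54 and 12.92 over the 6 arrays. The pluripotency factor Pou5f1, which the epiblast keeps at this stage, lay between 12.15 and 12.52, and Dnmt3b, its de novo DNA methyltransferase, between 13.47 and 14.31. Ttr (13.35 to 13.64) and Apoa1 (13.49 to 13.62), secreted products of the visceral endoderm that covers the epiblast, were also bright on every array. The trophoblast gene Tpbpa and the blood factor Gata1 were detected on none of the 6 arrays, and Elf5 of the extraembryonic ectoderm on 1, knockout replicate 2. Other genes of these tissues were detected. Of blood and endothelium, Hbb-bh1 (5.60 to 8.35) and Tal1 (6.40 to 7.15) were detected on all 6 arrays, Kdr on 5, Hba-x on 2 and Hbb-y on 1. Plac1 of the trophoblast list had means of 8.75 in the controls and 9.18 in the knockouts. In bulk tissue, fewer cells of a type and less RNA per cell cannot be told apart.

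Several genes of the anterior neural plate stood lower in the knockout posterior arrays, as did single epiblast genes such as Slc7a3, and single genes of mesoderm, trunk identity and Notch signalling stood higher, but no probe passed the test. limma with Benjamini-Hochberg adjustment called 0 of 18708 probes (0%) at an adjusted p under 0.05, and the smallest adjusted p was 0.12. At an unadjusted p under 0.05 there were 1896 probes, 723 higher (3.86% of those tested) and 1173 lower (6.27%). That total was 3016 without knockout posterior replicate 1 and 1255 without control posterior replicate 2. All knockout arrays lay above all control arrays for 1206 probes (6.45%) and below them for 1831 (9.79%). This split rests on the scaling: with median scaling, which moved the median difference of all probes from -0.027 to 0.165, 1986 probes were higher and 318 lower at an unadjusted p under 0.05, and 1697 and 985 did not overlap. Past a log2 difference of 1 without overlap lay 2 probes on the higher side and 36 on the lower side. Other settings called between 0 and 4 probes, except that leaving out knockout posterior replicate 1 gave 47, of which 10 were higher and 37 lower.

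**Figure D1:**
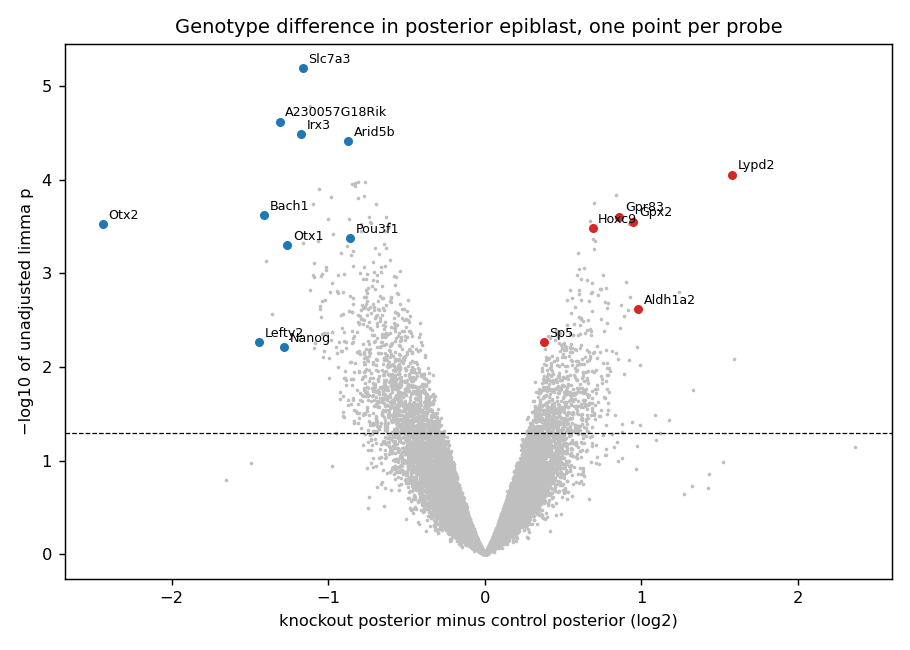
Each point is a probe, placed by its knockout minus control difference on the x axis (log2) and by −log10 of its unadjusted limma p on the y axis, with the dashed line at an unadjusted p of 0.05 and named genes coloured blue where lower and red where higher. Slc7a3 (-1.16) has the smallest p and Otx2 (-2.44) the largest difference on the lower side among the named genes, and no point passed after adjustment.

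Dkk1 itself was near the limit of detection in this tissue. Its probe read 5.05, 5.12 and 4.64 on control posterior replicates 1 to 3, detected on 2 of them, and 4.74, 4.31 and 4.46 on the knockout replicates, detected on none. It failed the filter and was not tested. In the anterior arrays the same probe read 6.10, 5.78 and 6.06 in the controls and 6.0, 6.27 and 6.17 in the arrays labelled knockout. Anterior arrays labelled knockout thus read as high as the controls. The position of the probe against the deletion was not stated, so it checks the genotype labels in neither region. Directions below are those of the arrays as labelled.

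Among other secreted and membrane Wnt antagonists, 10 of 18 listed genes were tested, and Sfrp1, a soluble decoy for Wnt ligands, was the 1 member with an unadjusted p under 0.05. At that p, 428 of all 10180 genes were higher and 533 lower, so the list lay near the share of all genes. Sfrp1 is given as a single gene. Its probe read 7.77, 7.55 and 8.14 in the controls and 7.48, 7.14 and 7.30 in the knockouts, a difference of -0.51 (SE 0.16, adjusted p = 0.35), and its other probe gave -0.95. Of 10 tested Wnt ligands, Wnt6 differed by 0.61 (SE 0.19, adjusted p = 0.33) and by 0.42 without knockout replicate 2. Wnt3a, the ligand that maintains the streak and the presomitic mesoderm, differed by -0.30 (SE 0.25) and by -0.16 without that array, and Wnt5b by 0.27 (SE 0.21). The receptor list, 14 of 19 tested, had a median of -0.22 that shrank to -0.04 without knockout replicate 2.

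Several direct targets of Wnt and beta-catenin were bright in the control posterior epiblast and lay close to it in the knockout. Mean levels of the tested targets ran from 5.57 to 12.71 over the 6 posterior arrays. Sp5, a zinc finger factor that is a direct target of beta-catenin, read 11.54, 11.59 and 11.63 in the controls and 11.98, 11.99 and 11.93 in the knockouts. The groups did not overlap and were tight, and the difference was 0.38 (SE 0.11, adjusted p = 0.33). Axin2, the feedback inhibitor of the pathway, read 10.37, 10.38 and 10.30 against 10.48, 10.55 and 10.65, a difference of 0.21 (SE 0.12, adjusted p = 0.58). Cdx2, which specifies posterior identity, differed by 0.24 (SE 0.16), Fgf8, the growth factor of the streak, by 0.39 (SE 0.20), and Lef1, a nuclear partner of beta-catenin, by 0.07 (SE 0.20). Over the 19 of 25 listed targets that were tested, 1 had an unadjusted p under 0.05, 5 did not overlap on the higher side and none on the lower side. Over all 10180 genes, 428 were higher and 533 lower at that p, and 721 and 916 did not overlap. The median of the targets was 0.10, beside -0.02 over all genes.

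The promoters of Dkk1, the gene named by the knockout, of Sp5, the target with the smallest p, and of Irx3, a neural gene that stood lower, are shown as the sequence context of these readouts. Each runs from 250 bases before to 50 bases after the start of the gene in RefSeq (GRCm38.p6), 5′ to 3′ on the gene's strand. Capitals mark CTTTGA, the core letters of the TCF/LEF recognition site, on either strand (TCAAAG when read from the other).
Dkk1, chr19:30549447-30549746, minus strand: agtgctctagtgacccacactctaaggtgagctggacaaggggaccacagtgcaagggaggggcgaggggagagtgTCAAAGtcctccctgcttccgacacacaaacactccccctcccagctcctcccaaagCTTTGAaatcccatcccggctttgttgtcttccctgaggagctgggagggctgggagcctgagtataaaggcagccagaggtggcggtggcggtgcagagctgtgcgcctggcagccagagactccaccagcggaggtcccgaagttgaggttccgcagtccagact
Sp5, chr2:70474673-70474972, plus strand: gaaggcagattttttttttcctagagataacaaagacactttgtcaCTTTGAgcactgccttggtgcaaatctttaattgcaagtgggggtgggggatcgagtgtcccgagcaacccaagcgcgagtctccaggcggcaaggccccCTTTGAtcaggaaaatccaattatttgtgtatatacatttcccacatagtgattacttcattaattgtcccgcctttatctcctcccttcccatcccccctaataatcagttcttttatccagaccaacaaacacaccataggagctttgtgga
Irx3, chr8:91801605-91801904, minus strand: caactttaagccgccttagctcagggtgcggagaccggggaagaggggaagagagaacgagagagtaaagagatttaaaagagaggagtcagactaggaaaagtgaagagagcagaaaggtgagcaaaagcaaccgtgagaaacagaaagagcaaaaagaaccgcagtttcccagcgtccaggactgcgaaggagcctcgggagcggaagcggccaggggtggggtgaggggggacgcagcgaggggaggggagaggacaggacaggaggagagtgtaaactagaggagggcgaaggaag
The Dkk1 window held 2 matches, the Sp5 window 2 and the Irx3 window 0. The same letters occur in 16% of 32851 promoter windows of this length, so a match describes the sequence and is no sign of binding.

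Most tested regulators of the forebrain and anterior neural plate stood lower in the knockout posterior epiblast. Of 24 listed genes 11 were tested, and 8 of them had an unadjusted p under 0.05 with no overlap, all lower, beside 399 of 10180 genes that met both criteria on the lower side over the whole table. None passed the adjusted threshold. The list was chosen with earlier results of these data known, so setting it beside all genes is a description and not a test. The median difference of the 11 tested was -0.76, and the medians on knockout replicates 1, 2 and 3 against the control mean were -0.50, -0.91 and -0.54. The remaining tested members, Fezf2 (0.01), Foxd4 (0) and Dlx6 (-0.13), overlapped between the groups. Without knockout replicate 2, Fezf2 gave 0.02, Foxd4 0.16 and Dlx6 -0.36. Most of the 8 are in other lists too. Sox2 is also listed with the pluripotent epiblast, early neural genes and trophoblast. Pou3f1, Zic2 and Sox3 are also listed with early neural genes, and Irx3 with the midbrain and hindbrain. Otx2 and Fzd5 are also listed with the anterior visceral endoderm and prechordal plate, and Otx2 with the definitive endoderm. Hesx1 and Six3 were detected on no posterior array and Lhx5 on 1, so these defining forebrain genes were not tested.

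Irx3, an Iroquois homeobox factor of the neural plate, had the smallest p of the list. It read 9.71, 10 and 10.01 in the controls and 8.88, 8.44 and 8.88 in the knockouts, a difference of -1.17 (SE 0.19, adjusted p = 0.15). All 3 knockout arrays lay below all controls. Its neighbour in the same gene cluster, Irx5, read 8.75, 8.51 and 8.52 against 8.45, 6.83 and 7.42, so that knockout replicate 1 lay just under the controls. The difference for Irx5 was -1.02 (SE 0.29, adjusted p = 0.31), and -0.66 without knockout replicate 2.

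Otx2, the homeobox factor needed for the forebrain and midbrain and expressed through the early epiblast, had the largest difference among the named genes. It read 8.76, 8.38 and 8.59 in the controls and 7.38, 4.54 and 6.49 in the knockouts, where replicate 2 did not detect it. The difference was -2.44 (SE 0.49, adjusted p = 0.17). Without knockout replicate 2 it was -1.65 (SE 0.23, adjusted p = 0.28), and over 27 settings the adjusted p ran from 0.015 to 0.70. The weak array held the lowest value, and the other 2 also lay below every control.

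Otx1, its paralogue, read 8.52, 8.32 and 7.88 in the controls and 7.65, 6.52 and 6.78 in the knockouts, a difference of -1.26 (SE 0.27, adjusted p = 0.21). Zic2, a zinc finger factor of forebrain patterning, differed by -1.04 (SE 0.30, adjusted p = 0.31), with control replicate 1 at 7.46 and the other 2 controls at 6.50 and 6.48. Pou3f1, a POU factor of the early neural plate, read 7.95, 7.66 and 7.95 against 7.18, 6.69 and 7.11, a difference of -0.86 (SE 0.18, adjusted p = 0.20). The neural and stem cell factor Sox2 differed by -0.76 (SE 0.29, adjusted p = 0.41), and the Wnt receptor Fzd5 by -0.39 (SE 0.17, adjusted p = 0.46), while a second Fzd5 probe gave -0.08.

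**Figure D2:**
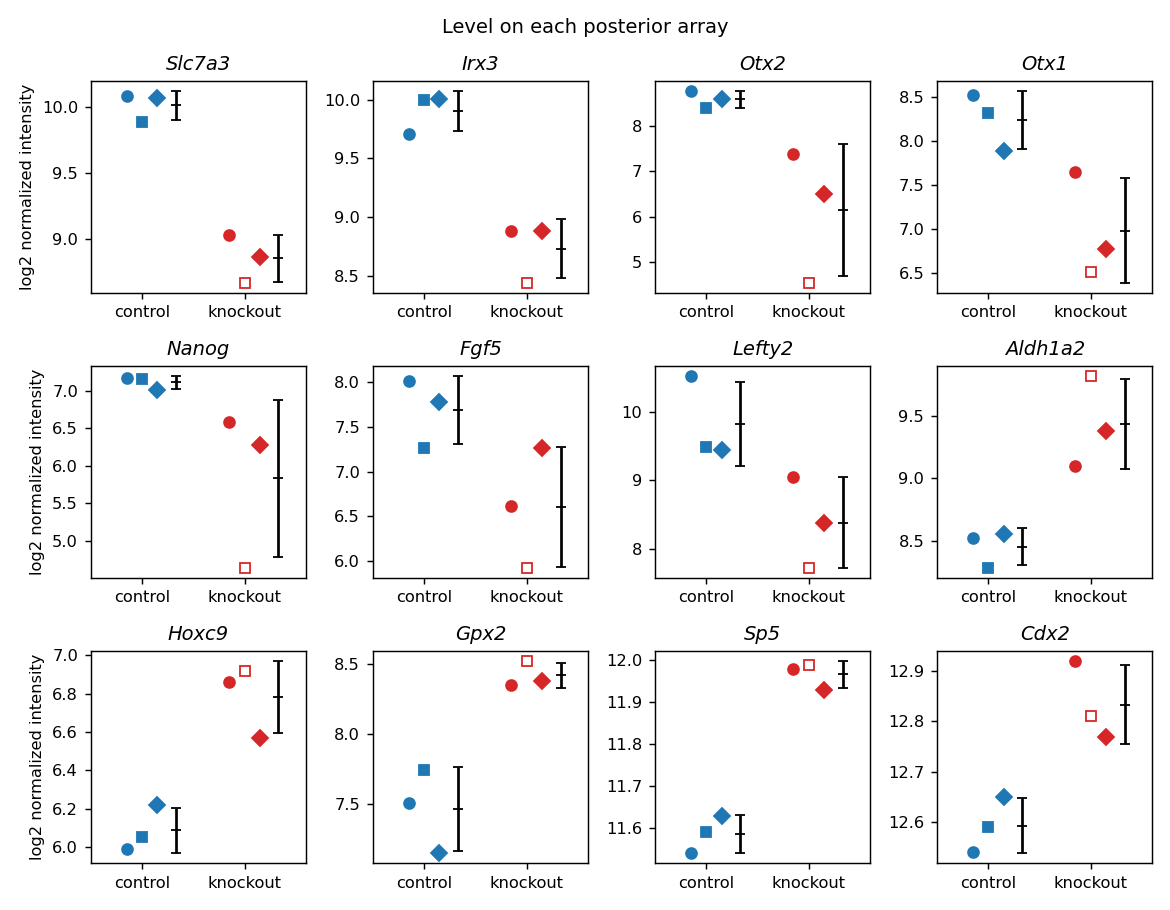
Level of 12 named genes on each posterior array (log2 normalized intensity, y axis not starting at 0 and differing between panels), with circles, squares and diamonds for replicates 1, 2 and 3, the open square for knockout replicate 2, and black bars for the mean ± SD (n = 3). Otx2 and Nanog spread widely in the knockout because of replicate 2 (4.54 and 4.64), whereas Slc7a3, Gpx2 and Sp5 separate with narrow groups.

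Some genes listed with the pluripotent epiblast also stood lower. Slc7a3, a transporter of cationic amino acids such as arginine and lysine, had the smallest p of all probes. It read 10.09, 9.89 and 10.07 in the controls and 9.03, 8.67 and 8.87 in the knockouts, and the narrow groups lay more than their own spread apart. The difference was -1.16 (SE 0.16, adjusted p = 0.12), or -1.07 without knockout replicate 2. With 1 named probe per gene its adjusted p was 0.046, and over 28 settings it ran from 0.002 to 0.61, under the threshold in 8.

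Nanog, a core pluripotency factor that persists in the posterior epiblast, read 7.17, 7.15 and 7.01 in the controls and 6.58, 4.64 and 6.28 in the knockouts. Its difference of -1.28 (SE 0.39, adjusted p = 0.34) became -0.69 without knockout replicate 2, where it was not detected. Fgf5, a growth factor that marks the primed epiblast, read 8.02, 7.27 and 7.78 against 6.62, 5.92 and 7.27, with the highest knockout array level with the lowest control to 2 decimals. Its difference was -1.09 (SE 0.32, adjusted p = 0.33). Dnmt3b differed by -0.52 (SE 0.14, adjusted p = 0.29), whereas Pou5f1 differed by -0.24 (SE 0.19, adjusted p = 0.70). The list went both ways: of 19 tested members of 24, 7 were lower and 3 higher at an unadjusted p under 0.05. Over all 10180 genes, 533 were lower and 428 higher, and the list's median was -0.15. Dnmt3l, a cofactor of the de novo methyltransferases, stood on the higher side with 0.62 (SE 0.27, adjusted p = 0.47).

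Genes of the streak itself went both ways. Of 21 tested members of 24, 3 were higher and 3 lower at an unadjusted p under 0.05, beside 428 and 533 of 10180 genes. The median of the list was 0.08. Eomes, a T-box factor of early streak mesoderm and endoderm, read 7.10, 6.31 and 6.11 in the controls and 5.47, 4.29 and 5.68 in the knockouts, a difference of -1.36 (SE 0.37, adjusted p = 0.28). Replicate 2 did not detect it either, and the difference was -0.95 without that array. Mixl1, a homeobox factor of nascent mesendoderm, overlapped between the groups, with -0.23 (SE 0.19) and -0.08 without knockout replicate 2, and its other probe gave 0.12.

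Among Nodal pathway genes, Lefty2, the secreted Nodal inhibitor of the streak and left mesoderm, read 10.53, 9.49 and 9.45 in the controls and 9.05, 7.72 and 8.38 in the knockouts, a difference of -1.44 (SE 0.43, adjusted p = 0.33). Nodal, the ligand, read 7.11, 6.65 and 6.77 against 7.44, 7.32 and 7.59, a difference of 0.60 (SE 0.15, adjusted p = 0.27), but its other probe gave -0.10. Bmp4, a ligand of the posterior and extraembryonic tissues, differed by 0.35 (SE 0.13, adjusted p = 0.40), and its target Msx1 by 0.39 (SE 0.14, adjusted p = 0.39). Of 21 tested genes of the BMP, Nodal and TGF-beta list, 4 were higher and 1 lower at an unadjusted p under 0.05. Over all 10180 genes, 428 were higher and 533 lower. The list's median was -0.05, or 0 without knockout replicate 2.

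Several genes that set position along the trunk stood higher. Of 30 listed Hox genes 21 were tested, 4 were higher at an unadjusted p under 0.05 and none lower, and 7 did not overlap on the higher side against none on the lower side. Over all 10180 genes, 428 were higher and 533 lower at that p, and 721 and 916 did not overlap. The Hox median of 0.35 was 0.21 without knockout replicate 2. Hoxc9, a gene of the thoracic trunk, had the smallest p. It read 5.99, 6.05 and 6.22 in the controls and 6.86, 6.92 and 6.57 in the knockouts, a difference of 0.69 (SE 0.14, adjusted p = 0.18). Hoxb1, which marks the streak and later the hindbrain, read 10.55, 10.58 and 10.60 against 11, 10.91 and 11.04, a difference of 0.41 (SE 0.22, adjusted p = 0.54). Hoxd4 differed by 0.72 (SE 0.28) but by 0.31 without knockout replicate 2, which read 8.29 where the other 2 knockouts read 7.17 and 6.91. Hoxb6 differed by 0.51 (SE 0.20) and by 0.28 without it. Hoxb2, with overlap between the groups, differed by 0.44 (SE 0.18) and by 0.29 without it. Without that array the unadjusted limma p was 0.11 for Hoxd4, 0.14 for Hoxb6, 0.13 for Hoxb2 and 0.0018 for Hoxc9.

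Aldh1a2, the enzyme that makes retinoic acid in the mesoderm, read 8.52, 8.28 and 8.55 in the controls and 9.10, 9.82 and 9.38 in the knockouts. The groups did not overlap, and the difference was 0.98 (SE 0.26, adjusted p = 0.28), with 0.77 from a second probe. Cyp26a1, the enzyme that degrades retinoic acid in the posterior embryo, overlapped between the groups, with -0.54 (SE 0.20, adjusted p = 0.40). Rarb, a retinoic acid receptor, differed by -0.75 (SE 0.19, adjusted p = 0.27), and -0.35 on its other probe. In the paraxial and presomitic mesoderm list, 15 of 21 genes were tested, 3 were higher at an unadjusted p under 0.05 and none lower. Over all 10180 genes, 428 were higher and 533 lower, and the list's median was 0.19. Tbx6, the determinant of presomitic mesoderm, differed by 0.19 (SE 0.18), and Dll1, the Notch ligand of that tissue, by 0.32 (SE 0.16). Both overlapped between the groups.

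Of the Notch pathway, 11 of 17 genes were tested, and 4 transcripts of known Notch response genes were higher at an unadjusted p under 0.05, with none lower and a median of 0.29, beside the 428 higher and 533 lower of 10180 genes. Hes5 differed by 0.59 (SE 0.19, adjusted p = 0.35) although its other probe gave 0.22, Hes7 by 0.51 (SE 0.18, adjusted p = 0.40), and Hes1 by 0.36 (SE 0.13, adjusted p = 0.40). Hes5 (means 4.86 and 5.46) and Hes7 (4.94 and 5.45) lay near background. Hes5 was detected on 2 of 3 control arrays, and Hes7 on 2 of 3 in each group. Over 27 settings the difference ran from 0.19 to 1.03 for Hes5 and from 0.17 to 1.13 for Hes7. Nrarp, a feedback inhibitor, differed by 0.38 (SE 0.14, adjusted p = 0.41). The receptors Notch1 and Notch3 had unadjusted p-values of 0.53 and 0.50.

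Of 20 tested node and notochord genes, 5 were higher and none lower at an unadjusted p under 0.05, with a median of 0.14, beside 428 and 533 of 10180 genes. The lists share members, so their counts are not separate observations. Nodal and Nog count here and in the BMP, Nodal and TGF-beta list. Bmp4 and Msx1 count in that list and in the extraembryonic and lateral mesoderm list, and Bmp4 also in the trophoblast list. Noto, the homeobox factor of the node, gave 0.06, the BMP antagonist Chrd -0.13 and the ciliogenesis factor Foxj1 0.09, all with overlap between the groups. Chrd gave -0.06 without knockout replicate 2. Shh, the signal of the node and notochord, read 6.51, 5.55 and 6.44 in the controls and 6.83, 7.29 and 6.83 in the knockouts, a difference of 0.81 (SE 0.25, adjusted p = 0.34). Nog, the BMP antagonist of the same tissue, read 4.95, 5.2 and 5.23 against 5.83, 5.99 and 5.88, a difference of 0.78 (SE 0.24, adjusted p = 0.34). Foxa2, the factor of node and endoderm, overlapped with -0.22 (SE 0.24), and with 0.09 without knockout replicate 2.

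**Figure D3:**
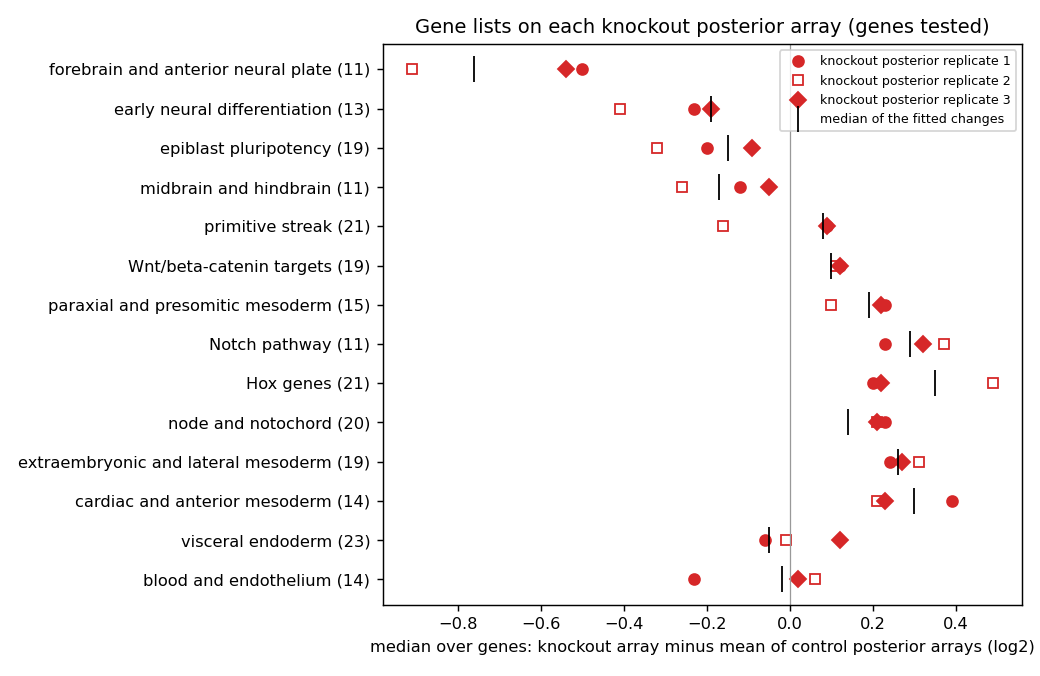
For 14 gene lists (genes tested in brackets), the median over genes of each knockout posterior array minus the mean of the control posterior arrays (log2, x axis), with circles, open squares and diamonds for knockout replicates 1, 2 and 3 and a black tick for the median of the fitted differences. The forebrain list lies at -0.50, -0.91 and -0.54 and the Hox list at 0.20, 0.49 and 0.22, with replicate 2 farthest from 0 in both.

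Markers of tissues that the dissection could carry were set beside these groups as the sum of normalized intensities over each list's tested genes. For visceral endoderm (23 of 25 tested) the sum was 82300 to 85700 in the controls and 78800 to 88900 in the knockouts, which overlapped, and the list's median difference was -0.05, or 0.01 without knockout replicate 2. For extraembryonic and lateral mesoderm (19 of 27) it was 14900 to 16000 in the controls and 17900 to 19500 in the knockouts, without overlap. That list had 4 genes higher and none lower at an unadjusted p under 0.05, beside 428 and 533 of 10180 genes, and a median of 0.26. For extraembryonic ectoderm and trophoblast (13 of 24) the sum was 11100 to 11900 in the controls and 12400 to 13500 in the knockouts. These again did not overlap, although Elf5 and Tpbpa were at or near background. Cdx2 (means 12.60 and 12.83), a posterior marker here, was the brightest member of this list. It was also the brightest of the extraembryonic and lateral mesoderm list, and so weighed most in both sums. The trophoblast list went both ways, with 4 genes higher and 2 lower (Eomes and Sox2) at an unadjusted p under 0.05. Its median was 0.11, or 0.04 without knockout replicate 2. Of the 4 higher genes, Gzmd passed the filter only through the knockouts. For surface ectoderm and amnion (17 of 20) the sums were 9210 to 10600 in the controls and 10500 to 11500 in the knockouts. For blood and endothelium (14 of 22) they were 4030 to 4780 and 4190 to 5140, and for definitive endoderm (16 of 18) 13000 to 14600 and 13500 to 16100. The part of these tissues in the Hox, BMP and mesoderm values was not tested. Tbx4, a gene of the allantois, lay between 8.17 and 8.32 on 5 arrays and at 9.84 on knockout replicate 2.

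Of 23 listed cardiac and anterior mesoderm genes 14 were tested, with mean levels from 4.98 to 10.82 over the posterior arrays. At an unadjusted p under 0.05, 4 were higher and 1 lower, beside 428 and 533 of 10180 genes, and the list's median was 0.30. Myl2, a ventricular myosin light chain, differed by 0.78 (SE 0.26, adjusted p = 0.37), and Actc1, cardiac actin, by 0.58 (SE 0.26, adjusted p = 0.49). Mef2c, a transcription factor of the heart field, went the other way with -0.63 (SE 0.28, adjusted p = 0.47), where knockout replicate 3 read 4.78 and the other 2 knockouts 5.83 and 6.08.

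The genes with the smallest p on the lower side included several with no role in the patterning lists. A230057G18Rik, a transcript with no assigned role here, read 7.14, 7.35 and 7.46 in the controls and 6.32, 5.87 and 5.83 in the knockouts, a difference of -1.31 (SE 0.20, adjusted p = 0.15). Arid5b, a DNA-binding chromatin cofactor, read 6.67, 6.66 and 6.68 against 5.92, 5.95 and 5.55, a difference of -0.87 (SE 0.14, adjusted p = 0.15). Asf1a, a histone chaperone, differed by -0.85 (SE 0.15, adjusted p = 0.17). Bcl11b, a zinc finger factor best known from T cells, differed by -1.0 (SE 0.20, adjusted p = 0.17), and by -0.42 on its other probe. Usp37, a deubiquitinase, differed by -0.81 (SE 0.15), whereas its other probe gave 0.22. Ppp4r3b, a regulatory subunit of protein phosphatase 4, differed by -0.77 (SE 0.14), with -0.72 on its other probe. E2f2, a cell cycle transcription factor named here after its values were seen, gave -1.11 (SE 0.17, adjusted p = 0.15) on 1 probe, -0.90 on another and 0.32 on the last.

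Bach1, a repressor of haem oxygenase and other antioxidant genes, read 8.33, 8.42 and 8.12 in the controls and 7.26, 6.48 and 6.89 in the knockouts, a difference of -1.41 (SE 0.28, adjusted p = 0.17). Hmox1, which encodes haem oxygenase, read 6.85, 6.41 and 6.75 against 7.16, 7.34 and 7.59, a difference of 0.70 (SE 0.15, adjusted p = 0.21). Gpx2, a glutathione peroxidase, read 7.51, 7.74 and 7.15 against 8.35, 8.52 and 8.38, a difference of 0.95 (SE 0.19, adjusted p = 0.17). None of these 3 genes overlapped between the groups.

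On the higher side, Lypd2, a member of the Ly6 family of surface proteins, had the smallest p. It read 5.70, 5.07 and 5.59 in the controls and 6.79, 7.54 and 6.78 in the knockouts, a difference of 1.58 (SE 0.28, adjusted p = 0.17), and 1.36 without knockout replicate 2. Gpr83, a G protein-coupled receptor, read 5.60, 5.32 and 5.32 against 6.09, 6.63 and 6.10, a difference of 0.86 (SE 0.17, adjusted p = 0.17). Cirbp, a cold-inducible RNA-binding protein, differed by 0.69 (SE 0.15, adjusted p = 0.20), and Gas6, a ligand of TAM receptors, by 0.63 (SE 0.15, adjusted p = 0.25). Tgfb1i1, a focal adhesion protein, gave 0.70 (SE 0.15) on the probe used and 0.02 on its other probe. Sct, the hormone secretin, differed by 0.90 (SE 0.22, adjusted p = 0.26), and Nid1, a basement membrane protein, by 0.85 (SE 0.27, adjusted p = 0.35). Defa3 gave 1.24 (SE 0.31, adjusted p = 0.27), but defensin genes are near-identical copies and the probe may read several of them.

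Some genes were above background in 1 genotype only, and their folds are lower bounds against the lowest detected signal of each array. Such probes passed the filter only through the group that detected them, so the filter fixed their direction, and their adjusted p-values are descriptions. Ago3, an Argonaute protein, had means of 5.07 and 4.43 and was at least 1.07-fold lower in the knockout on 1 probe (adjusted p = 0.17), while its other probe, still detected on 1 knockout array, gave -0.43. With median scaling the difference of the first probe turned to 0.27. Gzmd, a granzyme with close copies in its cluster, had means of 4.47 and 5.17 and was at least 1.27-fold higher (adjusted p = 0.17). C1qdc1 had means of 5.23 and 4.46 and was at least 1.19-fold lower (adjusted p = 0.17), but its difference turned to 0.13 with median scaling. Knockout replicate 2 had the highest lowest-detected signal of the 6 arrays, 5.13 against 4.81 to 4.95.

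The same genotypes were set side by side in the anterior epiblast, where only the interaction, the posterior difference minus the anterior one, tests whether the regions differ. It called 1 of 18708 probes (0.00535%), with 1015 at an unadjusted p under 0.05. That probe reads Rhbg, an ammonium transporter. In the posterior arrays it read 6.58, 6.66 and 6.51 in the controls and 6.58, 6.44 and 6.58 in the knockouts, a difference of -0.05 (SE 0.12). In the anterior arrays it read 4.67, 4.85 and 4.70 against 6.23, 6.07 and 6.09, a fitted difference of 1.38 (SE 0.12). Only 1 of these 3 control arrays detected it, so the size of the anterior difference and of the interaction depends on values near background. The interaction was -1.44 (SE 0.17, adjusted p = 0.029), and over 25 other settings its estimate ran from -1.64 to -0.52 and its adjusted p from 0.0056 to 0.48, under 0.05 in 8. The replicate number as a block gave an adjusted p of 0.18, and arrays of the same genotype and number as a random block, added after the data were seen, gave 0.024.

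No patterning gene passed the interaction test, so the following differences between regions were not established. Sp5 differed by 0.38 in the posterior and 1.19 in the anterior epiblast (interaction -0.80, SE 0.16, adjusted p = 0.39). Hoxb1 differed by 0.41 and 1.69 (interaction -1.28, SE 0.31, adjusted p = 0.49), and Tbx6 by 0.19 and 1.36 (interaction -1.18, SE 0.25, adjusted p = 0.40). Fzd5 differed by -0.39 and -1.60 (interaction 1.21, SE 0.23, adjusted p = 0.34). Gsc, the homeobox factor of the organizer, differed by 0.27 (0.50 without knockout posterior replicate 2) and -1.24 (interaction 1.52, SE 0.28, adjusted p = 0.29). Lefty2 differed by -1.44 and 1.01 (interaction -2.45, SE 0.61, adjusted p = 0.53). For Slc7a3 the values were -1.16 and -0.91 and for Pou3f1 -0.86 and -1.09, with interaction estimates of -0.25 (SE 0.22) and 0.22 (SE 0.26).

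**Figure D4:**
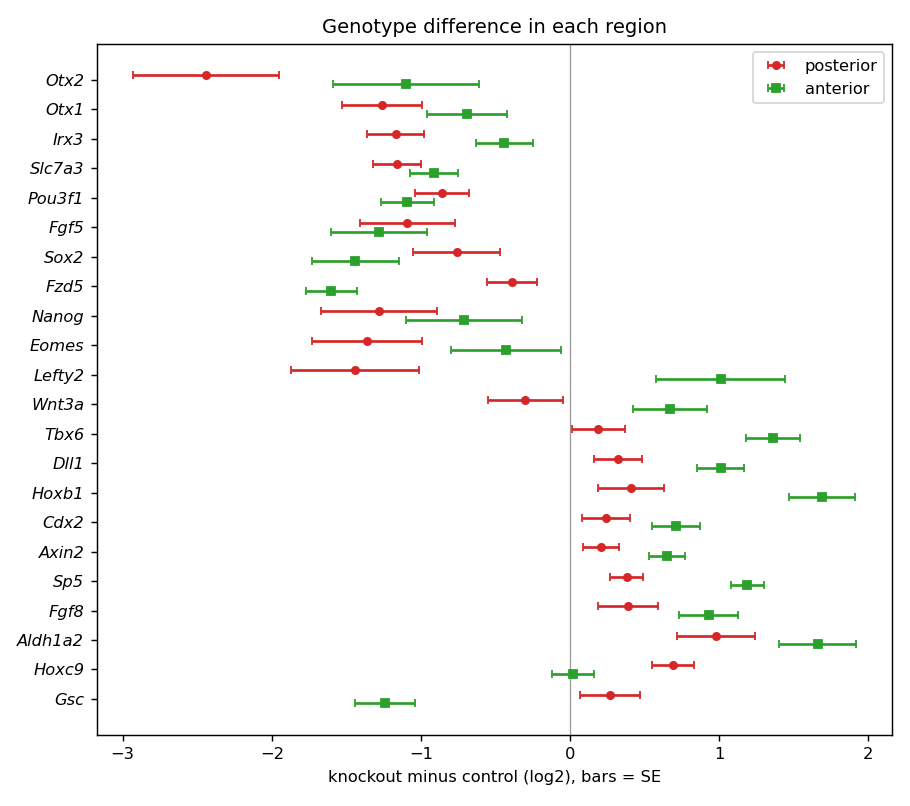
Knockout minus control difference (log2, x axis) of 22 named genes in the posterior (red circles) and anterior (green squares) epiblast, with bars for the SE. Otx2 and Irx3 are farther below 0 in the posterior, Hoxb1, Tbx6 and Sp5 farther above 0 in the anterior, and the interaction passed for none of the genes drawn.

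Sex-linked transcripts differed between arrays and not only between genotypes. Xist, the RNA of the inactive X chromosome, read 9.20, 4.45 and 7.96 in the control posterior arrays and 9.16, 9.52 and 10.02 in the knockouts, with no detection in control replicate 2. Eif2s3y, a Y-linked gene, read 7.73, 8.67 and 8.52 in the controls and 8.04, 7.60 and 4.32 in the knockouts, with no detection in knockout replicate 3. Both were detected on the other 4 arrays. The anterior arrays of the same genotype and number showed the same pattern, with Xist at 4.36 in control replicate 2 and Eif2s3y at 4.37 in knockout replicate 3. The fitted differences were 2.36 (SE 1.20) for Xist and -1.65 (SE 1.11) for Eif2s3y, and neither passed (adjusted p = 0.53 and 0.63). With the Xist level as a covariate, added after the data were seen, 0 probes were called and 1025 had an unadjusted p under 0.05.

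**Figure D5:**
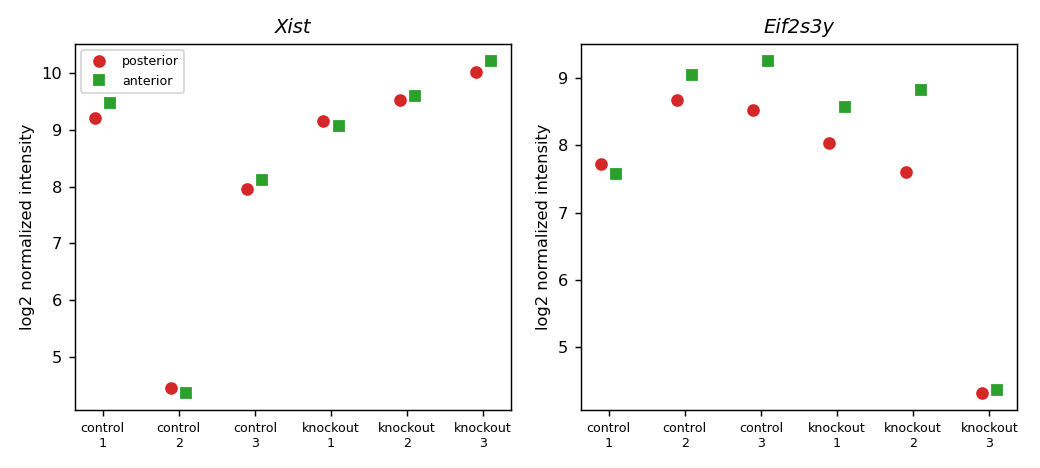
Level of Xist and Eif2s3y (log2 normalized intensity, y axis not starting at 0) on the posterior (red circles) and anterior (green squares) array of each genotype and replicate number. Control replicate 2 lacks Xist and knockout replicate 3 lacks Eif2s3y in both regions.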

How the data were processed

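Total RNA from posterior and anterior epiblast was hybridised to Illumina bead arrays and read with GenomeStudio, per the submitters' processing notes. Not given in the sources used here were its version, the array model and how the series matrix was normalized. The deposited table has linear signal intensity, neither background-subtracted nor scaled, with a detection p-value for each probe and array, per the file headers. The deposited series matrix covers 33557 of 46237 probes (72.6%) as log2 values, with array medians within 0.00353 of 6.66. Whether background was subtracted in it is unknown, and it served only as an alternative.

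Intensities of all 12 arrays were background corrected with the 936 negative controls that the detection p-values imply, quantile normalized and log2 transformed (neqc, limma 3.58.1, R 4.3.3, offset 16). Probes with a detection p under 0.05 on at least 3 posterior arrays were kept. limma fitted 4 group means, with moderated variances (prior degrees of freedom 4.61) and Benjamini-Hochberg adjustment over all 18708 probes. Adjusted p-values are limma's. Names came from the platform's probe table, updated through RefSeq (12728 by gene number, 927 by accession, 824 kept, 342 changed), and 4229 probes stayed unnamed. Of 10180 genes, 3125 had several tested probes, and the brightest was used. The fit was checked on data with known answers. The arrays' number limits the precision.

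Named were Dkk1, the 12 smallest p-values and 10 largest non-overlapping differences in each direction, landmark genes, and list members with an unadjusted p under 0.05 or at the ends of their list; the text gives those that carry each group. The members, landmarks and 35 gene lists were chosen with earlier results of these data known. T, Nkd1 and Msgn1 are not analysed here. Same-numbered control and knockout posterior arrays did not deviate together (correlations 0, -0.12 and 0.02), nor did anterior and posterior arrays of the same genotype and number in every case (0.07, 0.23 and 0.20 in the controls, -0.06, -0.15 and 0.03 in the knockouts), although their sex-linked levels match. The numbers were not taken to pair arrays. Alternatives covered normalization, offset, filters, variance model, array weights, the number as a block and leaving out each array. Figures were drawn with matplotlib 3.10.9.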

Additional observations from a re-analysis of the deposited data

Results flagged for a closer look

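Rhbg was picked out because its genotype difference was not the same in the posterior and the anterior epiblast by a direct test of that difference. The posterior minus anterior genotype difference was -1.44 (log2, SE 0.17, adjusted p = 0.029). It was -0.05 in the posterior arrays, with means of 6.58 in the control and 6.53 in the knockout, and 1.38 in the anterior arrays, with means of 4.74 and 6.13. Only 1 of 3 control anterior arrays detected the probe, so that mean lies near background and the sizes are approximate. With 1 array left out at a time the adjusted p ran from 0.041 to 0.19, under 0.05 only without knockout anterior replicate 3.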

How the results depend on the processing

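The number of probes called between knockout and control posterior arrays was 0, and stayed 0 with the replicate block, median scaling, neqc or a fit on the posterior arrays alone, every other detection filter and the Xist covariate. It was 3 without background correction (Irx3, Otx2 and Slc7a3), 1 with an offset of 50 (Slc7a3), 2 with cyclic loess, 3 with the series matrix values, 1 with 1 probe per gene, 3 with trended and robust variances and 4 with array weights, all of them lower. Leaving out 1 array gave 0 to 47, the highest without knockout posterior replicate 1. The interaction called 1 probe, 0 with an offset of 50, median scaling, trended variances, the replicate block or the Xist covariate, 3 with cyclic loess or the series matrix, 8 with array weights, and 0 to 4 when 1 array was left out. Probes without overlap numbered 2775 higher and 3203 lower with no filter. The cause of these moves was not tested. Median scaling reversed C1qdc1 (0.13), Ago3 (0.27) and Foxa2 (0.23), while cyclic loess reversed Lef1 (-0.02) and Foxa2 (0.04). With 1 array left out, Lef1 ran from -0.07 (without control posterior replicate 2) to 0.21 and Foxa2 from -0.47 to 0.09 (without knockout posterior replicate 2), and with the Xist covariate Lef1 was 0. The forebrain median ran from -0.92 to -0.31 and the Hox median from 0.19 to 0.50 over 28 settings. With arrays of the same genotype and number as a random block (consensus correlation 0.0245, added after the data were seen), 0 probes and, for the interaction, 1 were called. Weak signal on knockout posterior replicate 2 limits dim genes.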

Other observations

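Axon guidance genes went both ways, with 2 higher and 2 lower at an unadjusted p under 0.05 among 21 tested, beside 428 and 533 of 10180 genes. Unc5b, a netrin receptor, read 8.73, 8.82 and 8 in the controls and 7.64, 7.70 and 7.24 in the knockouts, a difference of -0.99 (SE 0.25, adjusted p = 0.27). Its relative Unc5c read 7.73, 7.95 and 7.95 against 8.25, 8.95 and 8.49, a difference of 0.69 (SE 0.18, adjusted p = 0.28). Both sets of arrays separated, in opposite directions. Of the ephrins, Efna5 differed by -0.47 (SE 0.17, adjusted p = 0.40) and Efna1 by 0.51 (SE 0.19, adjusted p = 0.41).

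Among 21 tested glycolysis and hypoxia genes, the lactate exporter Slc16a3 differed by -0.84 (SE 0.18, adjusted p = 0.21), while Ddit4, a stress-induced inhibitor of mTORC1, differed by 0.55 (SE 0.16, adjusted p = 0.33). The list's median was -0.15. In the FGF/ERK list, 3 of 19 tested genes were lower and none higher at an unadjusted p under 0.05, beside 533 and 428 of 10180 genes. Of the 3, Fgf4 was detected on no knockout array. It passed the filter only through the controls, so the filter fixed its direction. Another, Spred2, an inhibitor of the ERK cascade, differed by -0.97 (SE 0.28, adjusted p = 0.31), and 1 of 3 knockout arrays detected it. Epithelial genes of the surface ectoderm list included Cldn4, a tight junction protein, with 0.61 (SE 0.17, adjusted p = 0.30), the keratin Krt19 with 0.63 (SE 0.22, adjusted p = 0.39), and Grhl2, an epithelial transcription factor, with -0.68 (SE 0.27, adjusted p = 0.43), or -0.36 without knockout posterior replicate 2. Of 24 tested cell cycle genes, 2 were lower and none higher at an unadjusted p under 0.05, beside 533 and 428 of 10180 genes. The median of that list was -0.08. Mcm5, a subunit of the replicative helicase, differed by -0.32 (SE 0.12, adjusted p = 0.41). No ribosomal protein or mitochondrial-encoded gene, of 10 tested, had an unadjusted p under 0.05, and their median was 0.04. None of these genes passed limma's adjusted threshold, beside 0 of all 18708 probes.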
